A study of Mus musculus with 9 samples.

Results

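Among 9 RNA-seq libraries from the prelimbic cortex of mice, 4 held marker genes of striatal medium spiny neurons at levels far above the other 5. The 4 libraries were chosen by 1 measured value, the dopamine D2 receptor gene Drd2 at a CPM of more than 10. CPM is a gene's count divided by the total of its library and multiplied by 1000000. Replicates 2 and 3 of sham passed this threshold, as did replicates 1 and 3 of R-HNK, and the 5 below were sham replicate 1, injured saline replicates 1, 2 and 3, and R-HNK replicate 2. Sham mice had sham surgery and saline, injured saline mice had spared nerve injury (SNI), a cut through part of the sciatic nerve, with saline, and R-HNK mice had the same injury with R-HNK, (2R,6R)-hydroxynorketamine, at 10 mg/kg. Each group held 3 mice, and prelimbic cortex was taken on day 14 after the operation. The labels name this tissue for all 9 libraries, and the sources used here give no strain, sex, age or way of cutting out the tissue. Each library held between 53624337 and 73586375 counts.

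Medium spiny neurons are the GABAergic projection cells that make up most of the striatum, which lies beneath the frontal cortex. One population carries the D2 receptor together with the adenosine receptor Adora2a and the opioid precursor enkephalin, and the other carries the D1 receptor with substance P and dynorphin. Prelimbic cortex is built mainly of glutamatergic pyramidal cells and interneurons and sends a dense projection to the striatum. In bulk tissue more cells of a type and more RNA per cell cannot be told apart, which holds for every level below.

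The promoters of 3 genes, Drd2 and 2 of the 10 genes most like it, are shown because their RNA moved together across the libraries. Each is the run of 200 bases before the RefSeq start on GRCm38.p6, written 5′ to 3′ on the strand of the gene. Capitals mark the cAMP response element TGACGTCA in Gpr6 and the GC box GGGCGG or its reverse complement in Drd2 and Rgs9. The windows are chr9:49340203-49340402 on the plus strand for Drd2, chr10:41072291-41072490 on the minus strand for Gpr6 and chr11:109298182-109298381 on the minus strand for Rgs9, and none overlaps an annotated exon.
Drd2: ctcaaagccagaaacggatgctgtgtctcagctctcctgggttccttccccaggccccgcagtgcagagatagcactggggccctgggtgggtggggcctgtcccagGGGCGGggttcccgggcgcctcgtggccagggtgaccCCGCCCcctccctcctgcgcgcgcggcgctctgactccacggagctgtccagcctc
Gpr6: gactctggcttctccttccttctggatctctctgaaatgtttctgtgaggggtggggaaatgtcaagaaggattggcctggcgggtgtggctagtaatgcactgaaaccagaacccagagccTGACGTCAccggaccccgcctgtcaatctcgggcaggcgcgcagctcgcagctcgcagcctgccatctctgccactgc
Rgs9: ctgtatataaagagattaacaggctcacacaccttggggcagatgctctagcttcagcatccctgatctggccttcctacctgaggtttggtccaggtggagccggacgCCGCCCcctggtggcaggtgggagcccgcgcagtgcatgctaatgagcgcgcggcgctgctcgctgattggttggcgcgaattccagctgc
RefSeq promoters were found for 84 of the 118 genes that were higher above the threshold at least 2-fold, as counted further on. On either strand, TGACGTCA stood in 2 of the 84 (2.38%) and in 1.55% of all 27025 promoters. GGGCGG stood in 39 of the 84 (46.4%), in 31.3% of all promoters and in 51.6% of the 13699 promoters of tested genes. AGGTCA stood in 3 (3.57%, against 8.50% for tested genes) and TAATTA in 2 (2.38%, against 1.94%). The shares among the 84 lay close to or below those of tested genes for all 4 motifs. A match describes letters in the window and no binding.

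In what follows values are CPM in the order of replicates 1, 2 and 3. Drd2 (chr9:49340627-49408177, GRCm38) stood at 1.23, 44.4 and 42.9 in sham, 1.46, 1.70 and 1.52 in injured saline and 17.7, 1.26 and 25.02 in R-HNK libraries. The lowest library above the threshold was thus R-HNK replicate 1 at 17.7 and the highest below it injured saline replicate 2 at 1.70, with nothing between. Adora2a (chr10:75316877-75334784), the adenosine receptor found on D2 cells, read 1.88, 63.0 and 70.9, then 2.52, 1.43 and 2.497, then 23.2, 2.04 and 41.4, and a threshold of 10 CPM on this gene picks the same 4 libraries. In both genes sham replicates 2 and 3 were highest, R-HNK replicate 3 came next and R-HNK replicate 1 after it. The first principal component of all genes held 22.8% of the variance and placed the 4 libraries at 18.1 to 56.0 and the other 5 at -43.8 to -9.19. Of those below the threshold, sham replicate 1 lay at -9.19, R-HNK replicate 2 at -18.6 and the injured saline libraries at -43.8 to -36.5. The component thus set injured saline apart from sham and R-HNK as well.

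**Figure D1:**
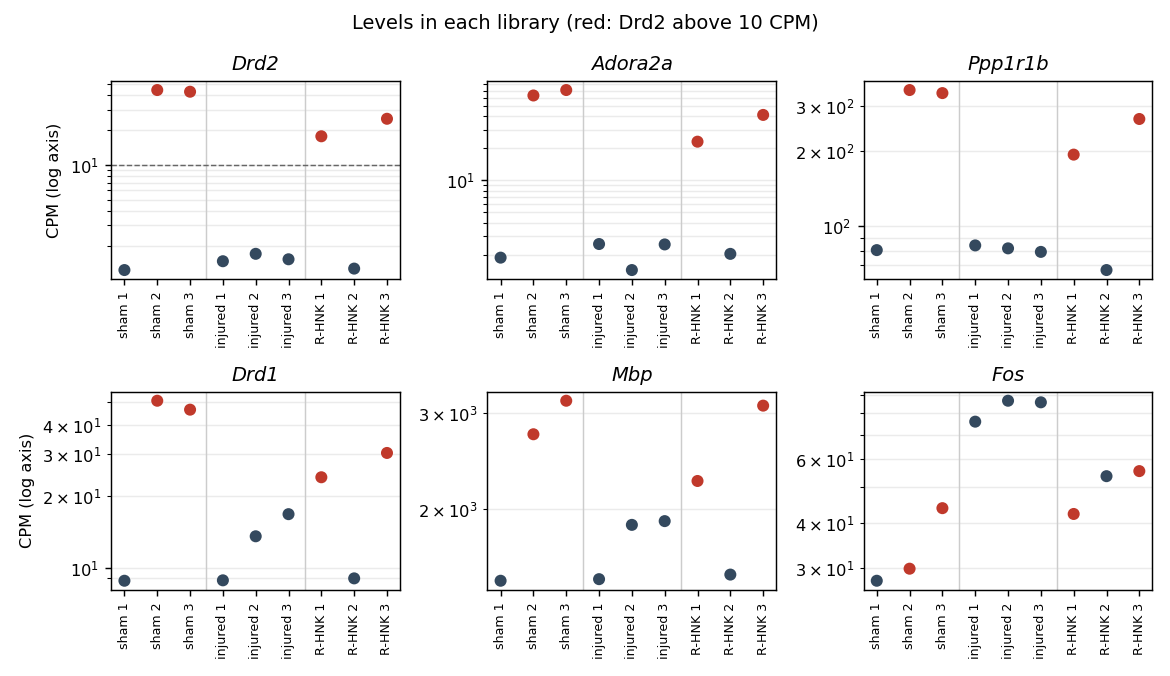
Level of 6 genes in each library, as CPM on a log axis whose span differs between panels; red points are the 4 libraries with Drd2 above 10 CPM (dashed line). Drd2, Adora2a, Ppp1r1b and Drd1 are higher in every red library than in any other, Mbp likewise by a smaller factor, and Fos is highest in the 3 injured saline libraries.

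Because the split was made from measured levels, differences across it are given as values with no test. A gene was counted as higher or lower when the 4 and the 5 libraries did not overlap and their means of log2(CPM + 0.5) differed by at least 1, that is 2-fold. Of 21765 genes with enough counts, 118 (0.542%) were higher above the threshold and 6 (0.0276%) were lower. Without a minimum fold, 1417 (6.51%) lay wholly higher and 659 (3.03%) wholly lower. The median difference over all genes was 0.03. Of the 118 higher genes 106 are protein coding, and their median difference was 1.35 over all libraries, 1.57 within sham and 1.05 within R-HNK.

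Of 6 markers of D2 medium spiny neurons 5 were higher at least 2-fold (median 2.83), a count that includes Drd2, which made the split (3.999), and Adora2a, which picks the same libraries (4.18). Of the other 4 genes 3 were higher at least 2-fold (0.542% of all genes were), with a median of 1.82 over the 4. Among them was the orphan receptor Gpr6 at 3.51. It gave 1.42, 20.2 and 20.6 in sham, 0.868, 0.626 and 0.639 in injured saline and 7.34, 0.493 and 12.6 in R-HNK libraries. Penk, the enkephalin precursor, is also made in cortex and stood at 44.8, 269 and 238, then 35.6, 37.4 and 31.98, then 93.5, 46.3 and 149 (difference 2.14). Gpr52, another orphan receptor of these cells, differed by 1.51. Sp9, a transcription factor of D2 cells that migrating interneurons and neuroblasts also express, was the exception. Its libraries overlapped, at 15.9, 20.2 and 21.8 in sham, 6.04, 7.38 and 7.54 in injured saline and 14.8, 18.0 and 15.1 in R-HNK libraries, so that it separated injured saline from both other groups and not the 2 sides of the threshold.

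Of 7 markers of D1 medium spiny neurons 4 were higher at least 2-fold (0.542% of all genes were). Pdyn lay wholly higher by less, and the list median was 1.56. Drd1, the D1 receptor, gave 8.80, 50.4 and 46.2, then 8.83, 13.5 and 16.8, then 24.0, 9.002 and 30.4 (difference 1.67). Tac1, the precursor of substance P, gave 13.5, 56.8 and 57.7, then 13.6, 14.1 and 17.2, then 24.99, 13.2 and 41.8 (difference 1.56). In both, all 5 libraries below the threshold kept a level of 8.80 CPM or more, whereas Isl1, a transcription factor of D1 cells, was at or near 0 there. Isl1 read 0, 2.39 and 4.16 in sham, 0.0681, 0.0659 and 0 in injured saline and 1.06, 0 and 2.07 in R-HNK libraries. Slc35d3, a carrier that aids D1 receptor traffic, differed by 2.38, and Pdyn, the dynorphin precursor, by 0.76. Chrm4, a muscarinic receptor of D1 cells that cortex expresses as well, was highest in injured saline replicates 2 and 3 at 25.9 and 28.8 CPM and differed by -0.01. Ebf1 overlapped too.

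Of 22 genes shared by both kinds of medium spiny neuron 14 were higher at least 2-fold (0.542% of all genes were). Another 6 lay wholly higher, and the list median was 1.08. Ppp1r1b, which encodes DARPP-32, a phosphatase inhibitor controlled by dopamine, gave 80.5, 348 and 339 in sham, 84.0, 81.8 and 79.2 in injured saline and 193, 67.1 and 267 in R-HNK libraries (difference 1.83). The 5 libraries below the threshold lay within 67.1 to 84.0 CPM, and the 4 above it began at 193 CPM. Rgs9, a regulator that shortens D2 receptor signals, gave 20.2, 105 and 117, then 18.9, 16.7 and 16.5, then 56.4, 16.1 and 82.2 (difference 2.27). Pde10a, a phosphodiesterase, differed by 1.83 and Adcy5, the main adenylyl cyclase of the striatum, by 1.05. Syndig1l, a synapse differentiation protein, differed by 3.24 and Lrrc10b by 2.94. Scn4b and Meis2 overlapped. Meis2, a homeodomain factor, was lower in the R-HNK libraries above the threshold (172 and 172 CPM) than in R-HNK replicate 2 (208 CPM). Over the 3 lists together 30 of 35 genes lay wholly higher (6.51% of all genes did), Drd2 itself among them.

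The other genes highest by the threshold were Six3, Sh3rf2, Cd4, Serpina9, Ccdc187 and Dlk1. Six3, a homeodomain factor of developing D2 neurons, gave 0.136, 15.4 and 17.7 in sham, 0, 0.0494 and 0 in injured saline and 4.67, 0 and 9.22 in R-HNK libraries. Its difference of 4.36 was the largest of the genes named by the rule, and it depends on the constant added before the logarithm (6.35 with 0.1). Six3os1 lies on the opposite strand of the same locus, and the sources used here do not say whether reads were counted by strand. Six3 was also the gene most like Drd2 over the 9 libraries (Pearson r = 0.996 of log2 levels), followed by Ppp1r1b (0.994), Adora2a (0.994), Rgs9 (0.992), Lrrc10b (0.990) and Sh3rf2 (0.990), with Nrsn2, Rarb, Gpr52 and Gpr6 from 0.987 to 0.986. These values describe 9 libraries in which 4 stand apart. Cd4, known from helper T cells, gave 1.01, 13.4 and 9.83, then 0.596, 0.511 and 0.959, then 4.73, 0.740 and 8.20.

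Some genes of cholinergic interneurons and of medial and ventral striatum were also higher, at low levels. Of 7 markers of cholinergic interneurons, the large acetylcholine cells of the striatum and basal forebrain, 4 were higher at least 2-fold (median 1.12), against 0.542% of all genes. The median of these 7 was 1.34 within sham and 0.63 within R-HNK. Slc5a7, the choline transporter, gave 0.853, 7.21 and 6.68 in sham, 0.698, 0.972 and 0.731 in injured saline and 2.39, 1.08 and 2.42 in R-HNK libraries. Chat, the acetylcholine synthesising enzyme, differed by 1.14 and Slc18a3, the vesicular transporter, by 1.12, but Slc18a3 lies inside Chat on the same strand, so their reads may be shared. Among 5 genes of medial and ventral striatum Nts (neurotensin, 1.69) and Dlk1 (2.14) were higher at least 2-fold, against 0.542% of all genes. Crym, Wfs1 and Cartpt overlapped.

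Myelin genes moved with the threshold by smaller factors. All 10 oligodendrocyte genes had higher means above it in both sham and R-HNK. Over the 9 libraries 8 lay wholly higher (6.51% of all genes did), and none reached 2-fold (median 0.73, against 0.03 for all genes). Mbp, myelin basic protein, gave 1473, 2742 and 3161 in sham, 1483, 1867 and 1897 in injured saline and 2249, 1512 and 3096 in R-HNK libraries. The 4 libraries above the threshold began at 2249 and the other 5 ended at 1897 CPM. Of 7 oligodendrocyte precursor genes 5 lay wholly higher (median 0.40), among them Olig2 (0.58) and Pdgfra (0.36). Astrocyte, microglial and endothelial lists had medians of 0.24, 0.24 and 0.23. Ependymal and choroid plexus genes had a median of 0.53, and meningeal fibroblast genes 0.40 over 9 libraries but -0.17 within sham. Gfap, the filament protein of white matter and reactive astrocytes, was the 1 astrocyte gene higher at least 2-fold, at 63.8, 94.1 and 109, then 55.2, 39.5 and 36.8, then 81.9, 50.5 and 122.

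Among genes of cortical neurons, part of the excitatory list was lower by small amounts, and the interneuron and layer lists had medians near that of all genes. Of 9 excitatory neuron genes 3 lay wholly lower and none higher (median -0.30), where 3.03% of all genes lay wholly lower and 6.51% wholly higher. Nrn1, a neurotrophic surface protein, gave 182, 127 and 92.0 in sham, 178, 208 and 200 in injured saline and 128, 187 and 120 in R-HNK libraries (difference -0.72). Slc17a7, the vesicular glutamate transporter of cortex, stood at 1931, 1546 and 1514 in sham but at 1874, 1873 and 1812 in R-HNK libraries, so its within-group differences were -0.34 and -0.02. Among 10 cortical interneuron genes Pvalb (-0.72), Lamp5 (-0.63) and Vip (-0.25) lay wholly lower, and the other 7 overlapped, among them Htr3a (0.29) and Reln (0.27), with a list median of -0.04. The upper layer list had a median of 0.00 and the deep layer list 0.06, with Nxph4 (0.52) and Syt6 (0.41) wholly higher. GABA enzymes and transporters went the other way (median 0.34), with Gad2 wholly higher at 154, 263 and 267, then 139, 138 and 157, then 176, 163 and 186.

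**Figure D2:**
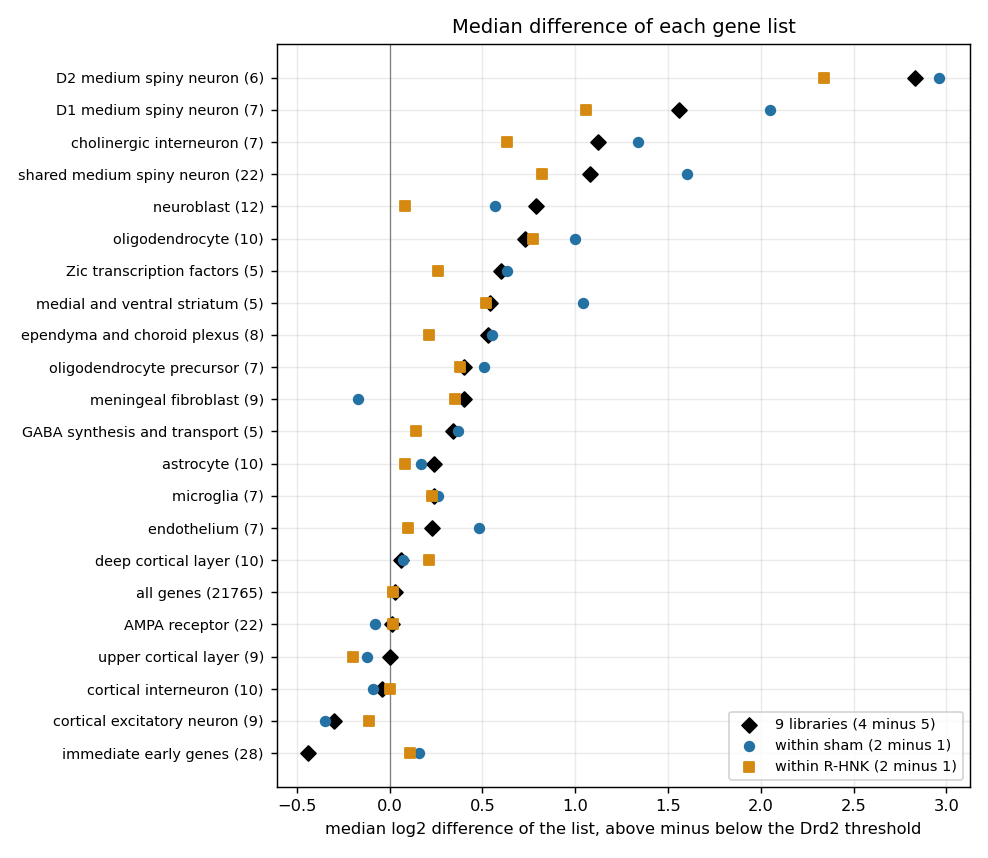
Median difference in log2(CPM + 0.5) of each gene list (number of genes in brackets), above minus below the Drd2 threshold; diamonds use all 9 libraries, circles the sham and squares the R-HNK libraries. The 3 medium spiny neuron lists lie at 0.82 or more in all 3 contrasts, and immediate early genes are at -0.44 over 9 libraries but at 0.16 and 0.11 within the groups.

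The lowest genes by the threshold were few and of modest size. Ccn4, a secreted matrix protein of the Wnt pathway, gave 4.995, 4.05 and 1.53 in sham, 7.86, 8.19 and 8.43 in injured saline and 3.97, 5.75 and 3.21 in R-HNK libraries (difference -1.07). It was highest in injured saline and did not reach 2-fold within sham (-0.855) or within R-HNK (-0.618). Pappa2, a protease that frees insulin-like growth factor, differed by -1.06, the potassium channel subunit Kcng4 by -1.02 and the odorant receptor Olfr78 by -1.01. The other 2 of the 6 genes lower at least 2-fold are the long noncoding genes Gm10635 and Gm47204, which the naming rule leaves out. Of the 6, 5 differed by at least 2-fold within sham and 1 within R-HNK, with medians of -1.1 and -0.62. Cyp26b1, which degrades retinoic acid, Adra1d, an alpha adrenergic receptor, and Wnt10a differed by -0.93, -0.79 and -0.79. When sham replicate 3 was left out 96 of the 118 higher genes and 2 of the 6 lower ones kept their call, and leaving out any other library kept at least 107 and at least 4.

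The same comparison was made within each group, with 2 libraries above the threshold and 1 below it. These contrasts share no library, but a gene whose 9 libraries do not overlap must have the same direction in both. Within sham 292 genes (1.34%) were higher without overlap and by at least 2-fold in the mean, and 130 (0.597%) were lower. Within R-HNK 157 (0.721%) were higher and 86 (0.395%) lower. Of the 292 genes higher within sham, 242 (82.9%) had a positive difference within R-HNK, against 53.7% of all genes. In R-HNK 64 of the 292 were also counted as higher and 5 as lower, so the shared 64 are 21.9% of the sham and 40.8% of the R-HNK list. Of the 130 lower within sham, 35.4% were positive within R-HNK, and 19 were counted as lower there. Across the 14088 genes with a mean of at least 2 CPM the 2 differences had a Pearson r of 0.361, which describes genes and not replicates. Of the 118 genes, 56 reached 2-fold in both groups.

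**Figure D3:**
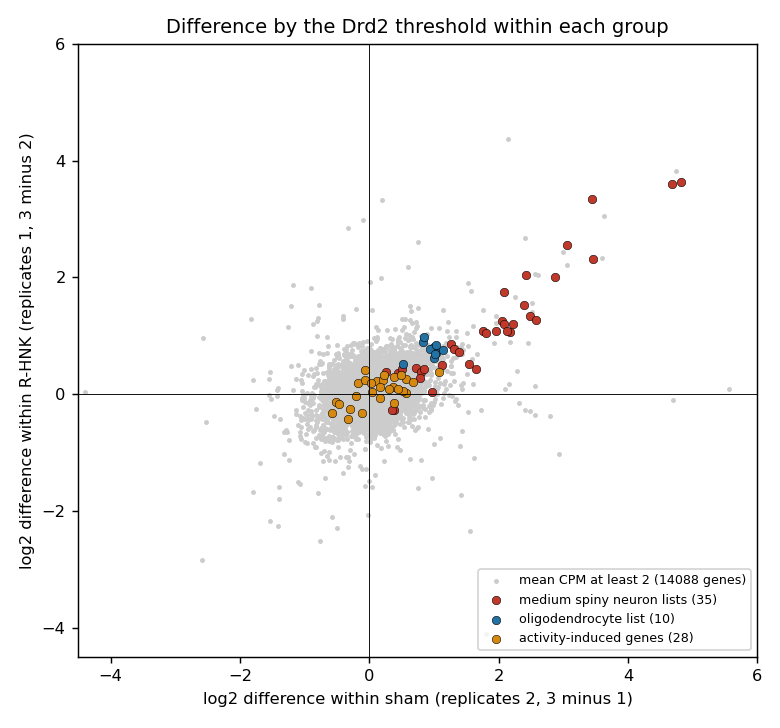
Difference in log2(CPM + 0.5) by the Drd2 threshold within sham (horizontal axis) against that within R-HNK (vertical axis) for 14088 genes with a mean of at least 2 CPM (grey). Medium spiny neuron genes (red) run to the upper right, oligodendrocyte genes (blue) are positive on both axes, and immediate early genes (orange) lie about 0.

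The rise was smaller in R-HNK than in sham. It was measured for each gene as the mean CPM of the 2 libraries above the threshold minus that of the 1 below, which for Drd2 came to 42.4 CPM within sham and 20.1 CPM within R-HNK, a ratio of 0.473. Over the 30 medium spiny neuron genes that lay wholly higher the ratio had a median of 0.462 (quartiles 0.379 and 0.490), and 27 had the order of Drd2, with both sham libraries above R-HNK replicate 3 and that library above R-HNK replicate 1. Of the 30, 29 were under 1, and Dclk3 was highest at 1.24. Ptpn5, at 0.731, Ppp1r1b, at 0.620, and Rgs9, at 0.589, were among those above the quartiles, and Slc35d3, at 0.272, was the lowest. The ratio of the 118 genes had a median of 0.489 (quartiles 0.361 and 0.622), and 107 were under 1. Over all genes, whose differences go both ways, the median ratio was 0.156, so a ratio under 1 is not particular to these genes. Oligodendrocyte genes had a higher ratio, with a median of 0.774 (quartiles 0.666 and 0.818), and only 3 of 10 had both sham libraries above R-HNK replicate 3. Mbp reached 3096 CPM in R-HNK replicate 3, between the 2742 and 3161 CPM of sham replicates 2 and 3. R-HNK replicate 3 thus stood near the sham level for myelin genes, and below both sham libraries for 34 of the 35 medium spiny neuron genes. The 7 cholinergic interneuron genes had a median ratio of 0.321, from 0.106 for Chat to 0.998 for Gbx1, at levels of few CPM.

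**Figure D4:**
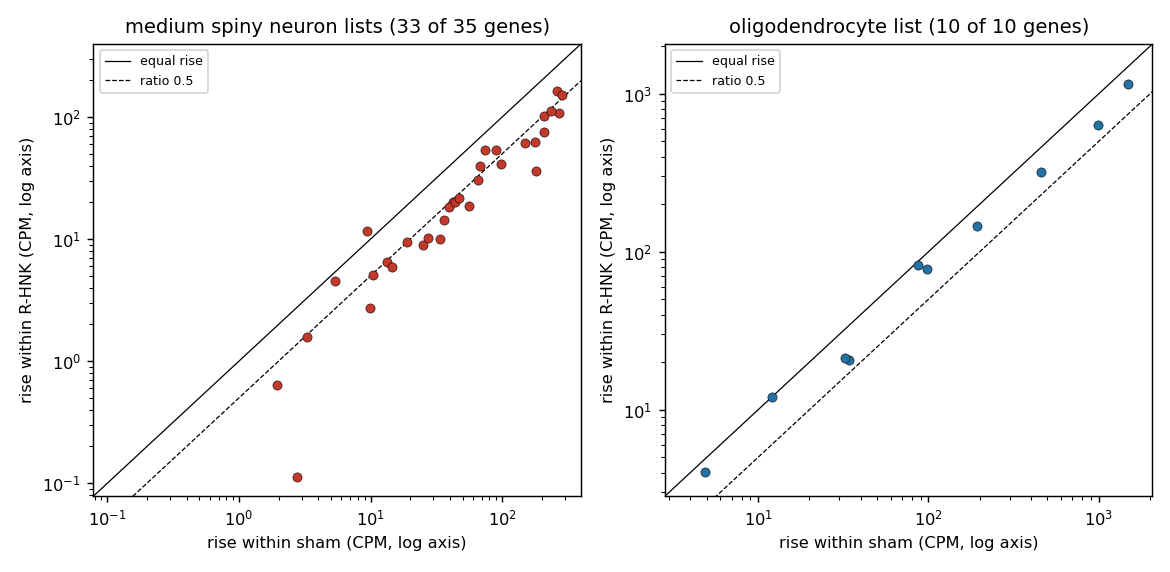
Rise in CPM above the Drd2 threshold within sham against that within R-HNK, on log axes, for medium spiny neuron genes (left; Sp9 and Meis2, which were lower above the threshold within R-HNK, cannot be drawn) and oligodendrocyte genes (right). Most genes on the left lie near the dashed line of ratio 0.5. Those on the right lie between it and the solid line of equal rise, except Opalin, which lies at the solid line (ratio 1.0).

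The summed level of neuroblast genes followed the groups more than the threshold, while part of the members followed the threshold. Of 12 genes of migrating and dividing progenitors, 4 were higher at least 2-fold (0.542% of all genes were) and 5 lay wholly higher (6.51% of all genes). The list median was 0.79 over the 9 libraries, 0.57 within sham and 0.08 within R-HNK. The CPM of the 12 genes summed to 259, 298 and 332 in sham, 159, 157 and 156 in injured saline and 258, 273 and 241 in R-HNK libraries. Dcx, Dlx1 and Sox4 had the highest levels in that sum. Sham replicate 1 and R-HNK replicate 2, both below the threshold, were thus far above all injured saline libraries. Dcx, a microtubule protein of young neurons, gave 67.2, 62.9 and 64.3, then 36.5, 36.1 and 40.4, then 51.4, 69.8 and 48.1, with R-HNK replicate 2 the highest of all. Sp8, Dlx1, Dlx2, Dlx5 and Sox4 were likewise lower in R-HNK replicates 1 and 3 than in replicate 2. The members that did follow the threshold in both groups include genes of cell division: Top2a, a DNA topoisomerase, gave 1.14, 6.86 and 7.91, then 0.953, 2.55 and 1.52, then 5.38, 1.56 and 6.72, and Mki67, a marker of dividing cells, differed by 1.16. The division genes Clspn, Uhrf1 and Foxm1, picked from the 118 higher genes after their values were seen, differed by 1.90, 1.23 and 1.03. Their direction follows from that choice, and no list of division genes was examined. Foxm1 did not reach 2-fold within sham (0.929) or within R-HNK (0.774). Zic1, a factor of septal and cerebellar lineages, gave 27.7, 34.8 and 57.1, then 11.8, 9.85 and 7.84, then 27.99, 18.2 and 30.4 and followed both the group and the threshold.

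Immediate early genes, which neurons switch on when they fire, show how the split and the groups mix. All 3 injured saline libraries are below the threshold, and their summed level of 28 such genes was 3467, 3535 and 3718 CPM, against 1874, 1779 and 1964 CPM in the sham and 2089, 2387 and 2468 CPM in the R-HNK libraries. The median difference by the threshold was -0.44 over the 9 libraries and 0.16 and 0.11 within sham and R-HNK. Fos gave 27.6, 29.8 and 43.8, then 76.0, 86.8 and 85.9, then 42.3, 53.7 and 55.5. Its sham library below the threshold was the lowest of that group and its R-HNK library below the threshold was the middle one. With the sham and R-HNK libraries alone the difference of Arc went from -0.79 to 0.29 and that of Trib1 from -0.71 to 0.01.

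**Figure D5:**
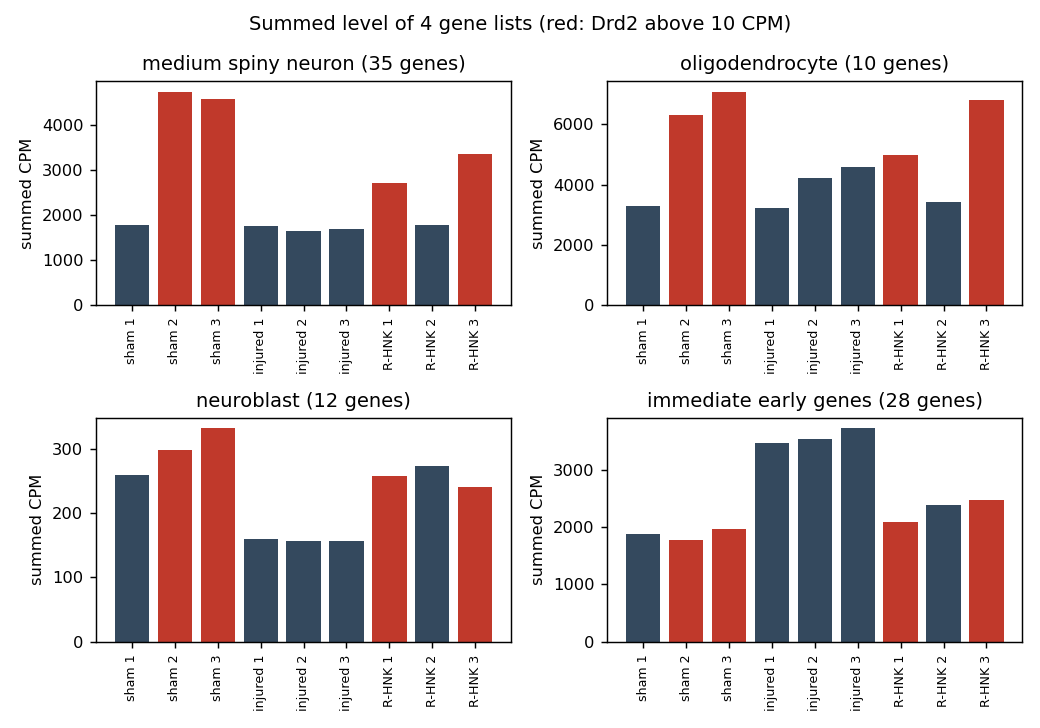
Summed CPM of 4 gene lists in each library; red bars are the 4 libraries with Drd2 above 10 CPM. Medium spiny neuron and oligodendrocyte sums are higher in the red bars, while neuroblast sums are lowest and immediate early sums highest in the 3 injured saline libraries.

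Genes of the AMPA receptor, the glutamate receptor of fast excitation, split by member. Of 22 genes 6 lay wholly higher and 5 wholly lower, against 6.51% and 3.03% of all genes. None reached 2-fold, and the median was 0.01 (-0.03 with TMM scaling). Gria1, a pore-forming subunit, gave 414, 453 and 519 in sham, 407, 360 and 385 in injured saline and 495, 396 and 447 in R-HNK libraries (difference 0.29). Gria4, the subunit of fast interneurons, gave 121, 99.7 and 91.6, then 104, 119 and 117, then 96.5, 119 and 93.5 (difference -0.28). Gria3 differed by -0.14 and Gria2 by 0.01 with overlap. The auxiliary subunits Cacng4 (0.61) and Shisa9 (0.31) lay wholly higher and Cacng2 (-0.31) and Cacng3 (-0.23) wholly lower. Dlg4, the scaffold PSD-95, overlapped at 838 to 988 CPM.

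The study's own comparisons were then read against the threshold, which none of them used to form groups. In edgeR's quasi-likelihood test with Benjamini-Hochberg adjustment over 21765 genes, 112 genes (0.515%) rose and 121 (0.556%) fell in injured saline against sham mice. Against injured saline mice, R-HNK mice had 8 genes (0.0368%) higher and 18 (0.0827%) lower, and against sham mice 1 gene (0.00459%), the pseudogene Gm6344, passed, with 769 at an unadjusted p under 0.05 and 10 in DESeq2. Sham and R-HNK each hold 2 libraries above the threshold and injured saline none, so the first 2 comparisons set groups that differ in it against each other and share the injured saline mice.

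Because all injured saline libraries lie below the threshold, genes higher above it are lower in injured saline mice by the way they were chosen, and their counts are given as a description. The 118 higher genes had a median log2 fold change of -1.83 in injured saline against sham mice, where all genes had -0.02, and 6 passed (C4b, Gpr101, Zic1, Cdca7, Igfbpl1 and Tacr1). At an unadjusted p under 0.05, 95 were lower (9.07% of all genes were), and DESeq2 called 64 lower (3.73% of all genes). Cdca7 and Igfbpl1 kept their call when any 1 library was left out. C4b, Gpr101 and Tacr1 lost it without sham replicates 2 or 3 or any injured saline library, C4b and Gpr101 also without R-HNK replicate 1 and Gpr101 without R-HNK replicate 3. Zic1 lost it without sham replicate 2, any injured saline library, or R-HNK replicates 1 or 3. Drd2 itself had a log2 fold change of -4.19 ± 1.54 (SE, edgeR adjusted p = 0.255) and Adora2a -4.34 ± 1.57 (edgeR adjusted p = 0.25), with sham replicate 1 at the level of the injured saline libraries. In R-HNK against injured saline mice the median was 1.29, 2 of the 118 passed (Cdca7 and Igfbpl1), 43 were higher at an unadjusted p under 0.05 (4.2% of all genes) and DESeq2 called 8 (0.386%). In R-HNK against sham mice the median was -0.56 and edgeR and DESeq2 called 0 (DESeq2 called 0.0184% of all genes lower), with 2 lower at an unadjusted p under 0.05 (1.87% of all genes). Of the 35 medium spiny neuron genes 28 were lower in injured saline mice at an unadjusted edgeR p under 0.05 and 1 was higher. DESeq2 called 15 of the 35 lower (3.73% of all genes). After adjustment in edgeR only Sp9 and Meis2 passed as lower, and the libraries of both overlapped by the threshold. Meis2 (-0.56 ± 0.12, SE, edgeR adjusted p = 0.0476) missed it with the Drd2 threshold as a term (0.217) and when sham replicates 2 or 3, injured saline replicates 2 or 3, or R-HNK replicates 1 or 3 were left out. In R-HNK against injured saline mice Sp9 alone of the 35 passed in edgeR, and DESeq2 called 1 higher. At an unadjusted p under 0.05, 4 of the 35 were higher there and 1 was lower. In R-HNK against sham mice edgeR and DESeq2 called 0, with 0 at an unadjusted p under 0.05. The oligodendrocyte list had 0 of 10 passing in edgeR and DESeq2 in all 3 comparisons, and 0 at an unadjusted p under 0.05.

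Of the 233 genes that passed between injured saline and sham mice, 38 (16.3%) lay wholly on 1 side of the threshold, 22 higher and 16 lower, against 6.51% and 3.03% of all genes. Every one of the 22 fell and every one of the 16 rose in injured saline mice. The direction is that of the split, whose lower side holds all injured saline libraries. With the side of the threshold as a term in the fit 106 genes passed, 82 of them among the 233, and 11 (10.4%) of the 106 lay wholly on 1 side. Without the 4 libraries 86 genes passed, 39 of them among the 233. Both fits are built from Drd2, so they test nothing about medium spiny neuron genes. The latter sets 3 injured saline libraries against 1 sham library, which is assumed to vary as they do. Leaving out sham replicate 1, the sham library below the threshold, raised the count to 1170, and leaving out sham replicates 2 or 3 lowered it to 62 and 86. Leaving out injured saline replicates 1, 2 or 3 lowered it to 134, 63 and 60. Leaving out R-HNK replicate 1, which is no part of the comparison but shares the estimate of spread, gave 133, and leaving out R-HNK replicate 2 gave 361.

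Igfbpl1, a gene of immature neurons that followed both, kept its call in each of these fits. It gave 3.97, 7.79 and 11.1 in sham, 0.681, 0.906 and 1.07 in injured saline and 7.19, 3.87 and 5.53 in R-HNK libraries, with no overlap between injured saline and either other group. Its log2 fold change in injured saline against sham mice was -3.05 ± 0.37 (SE, edgeR adjusted p = 0.00302), -2.33 with the term (adjusted p = 0.00125) and -2.13 without the 4 libraries (adjusted p = 0.0149). Chd7, a chromatin remodeller that lay wholly higher, fell by 0.86 on the log2 scale (edgeR adjusted p = 0.0156), and missed the threshold with the term (adjusted p = 0.0701) and without the 4 libraries (0.438). Trib2, a pseudokinase that lay wholly lower, likewise rose by 0.49 (edgeR adjusted p = 0.0231) and missed it in both (0.144 and 0.411). Zic2 (-0.95, edgeR adjusted p = 0.0477), Slc4a4 (-0.57, 0.0307) and Hydin (-1.65, 0.0458), whose libraries overlapped, also missed it in both. Chd7, Zic2, Slc4a4 and Hydin missed it too without sham replicate 2, sham replicate 3 or any injured saline library, and Trib2 without sham replicates 2 or 3 or injured saline replicates 2 or 3. Neurod6, a factor of cortical excitatory neurons, rose by 0.70 (edgeR adjusted p = 0.00901), passed with the term (0.0246) and missed it without the 4 libraries (0.126). Its call was lost too when sham replicate 2 or 1 of injured saline replicates 2 and 3 was left out.

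Immediate early genes were called in like numbers with and without the threshold as a term, but the called genes were not all the same. In injured saline against sham mice 20 of 28 rose in edgeR (0.515% of all genes did) and 20 with the term, with Junb in place of Arc. Their median log2 fold change was 0.99, and it was 1.09 with the term and 1.12 without the 4 libraries. Trib1 rose by 1.48 ± 0.10 (SE, edgeR adjusted p = 3.18e-05), by 1.46 with the term and by 1.35 without the 4 libraries. Arc, whose product controls removal of AMPA receptors, rose by 1.92 ± 0.24 (edgeR adjusted p = 0.0151). Its log2 fold change was 2.13 with the term (edgeR adjusted p = 0.0692) and 2.30 without the 4 libraries (adjusted p = 0.000128). Arc was also not called when sham replicate 2, or the second or the third injured saline library, was left out. Neuroblast genes fell in 9 of 12 cases (0.556% of all genes did) and in 7 with the term. Their median was -0.98, -0.83 with the term and -0.63 without the 4 libraries. In R-HNK against injured saline mice 8 immediate early genes fell (0.0827% of all genes did). With the term 8 fell, with Egr2 and Dusp1 in place of Egr1 and Nr4a1. Their median was -0.61, -0.65 with the term and -0.61 without the 4 libraries. In the same comparison 4 neuroblast genes rose (0.0368% of all genes did). With the term 4 rose, with Dcx in place of Dlx2. The neuroblast median was 0.84, 0.66 with the term and 0.78 without the 4 libraries. The oligodendrocyte median in injured saline against sham mice was -0.44, and it was 0.20 with the term and 0.29 without the 4 libraries, with 0 of 10 passing in each.

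In R-HNK against injured saline mice 6 of the 26 genes that passed (23.1%) lay wholly on 1 side of the threshold. Of these, 3 were higher and 3 lower, against 6.51% and 3.03% of all genes. Igfbpl1, Cdca7 and the clustered protocadherin Pcdhgb5 were higher above the threshold and rose, and Midn, Trib2 and Fam43a were lower and fell. These directions follow largely from the split, whose lower side holds all injured saline libraries and whose upper side holds 2 of the 3 R-HNK libraries. Pcdhgb5 shares exons with its neighbours, so its count is uncertain. With the term Igfbpl1 (1.94, edgeR adjusted p = 0.016), Cdca7 (1.38, 0.0384) and Midn (-0.55, 0.0291) passed, and Pcdhgb5 (0.102), Trib2 (0.191) and Fam43a (0.292) missed the threshold. Of the 6, Igfbpl1 and Midn passed without the 4 libraries (adjusted p = 0.0356 and 0.0398), where R-HNK replicate 2 is the only library of its group and is assumed to vary as the injured saline libraries do. All 6 missed it without injured saline replicate 2, injured saline replicate 3 or R-HNK replicate 1, and all but Midn without R-HNK replicate 3. With the term 24 genes passed in this comparison, 17 of them among the 26. Leaving out sham replicate 1 raised the count to 56. Injured saline replicates 2 and 3, left out in turn, lowered it to 8 and 7, and R-HNK replicates 1 and 3 to 10 and 15. Sp9, whose libraries overlapped by the threshold, rose by 1.16 ± 0.14 (SE, edgeR adjusted p = 0.00622), by 1.14 with the term and by 1.34 without the 4 libraries, and its call held in each of the 9 fits with a library left out.

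Single libraries could place a gene in the count by themselves. Qser1, picked after its values were seen, was listed at 0 in sham replicate 1, where the other 8 libraries read 15.2 to 23.5 CPM, and it counted as higher above the threshold with a difference of 1.31. Within R-HNK its difference was 0.08.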

How the data were processed

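RNA from the prelimbic cortex of 9 mice was sequenced on an Illumina NovaSeq instrument, per the labels' protocols. The submitters' processing notes name HISAT2 2.0.5, mm10 and featureCounts 1.5.0-p3, while the deposited table is named for StringTie. The deposited values are expected counts (estimated counts, here whole numbers, not normalized) for 55335 gene symbols.

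The Drd2 rule, the members and the gene lists were chosen with earlier results of these data known. CPM used library totals, and split differences used log2(CPM + 0.5) over the 21765 genes that filterByExpr kept. The 3 group comparisons were fitted in edgeR 4.0.16 (R 4.3.3): TMM scaling, robust quasi-likelihood, 1 mean per group over 9 libraries, Benjamini-Hochberg adjusted p under 0.05. The SE was worked back from the test statistic. DESeq2 1.42.0 was run beside it. The fit and the counting of split genes were tested on simulated data. Replicates are separate mice, per the series' design text.

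Genes were named by a rule: 18 chosen genes, the 15 highest and 15 lowest by the split, the 10 most like Drd2, up to 4 per list by size of difference and up to 8 called genes of each kind per comparison; the split and likeness parts took full symbols with a median of at least 1 or a mean of at least 2 CPM. Other list members, and genes named to account for a small count, were picked after their values were seen. Gene models are those of GENCODE M21 on GRCm38, the build equivalent to mm10 (98.3% of tested genes matched; Gpr52 was among those that did not). Promoters are RefSeq's on GRCm38.p6. Whether counting used strand is not stated by the sources used, so overlapping and antisense genes may share reads.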

Additional observations from a re-analysis of the deposited data

Results flagged for a closer look

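Within sham and within R-HNK the libraries above the Drd2 threshold moved in opposite directions for 9 of the 132 genes named by the rule and for 1 of the 21 lists. Over all 21765 genes 4864 (22.3%) did so. Part of the 132 genes were named because their 9 libraries do not overlap, and such genes cannot move in opposite directions. Their count can therefore not be compared with the share over all genes. In each case both libraries above the threshold lay on 1 side of the library below it in 1 group and on the other side in the other group. Whether the groups differ in this was not tested, since 1 library stands alone on 1 side in each group.

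The differences in log2(CPM + 0.5) within R-HNK and within sham were as follows. Sp9 had -0.26 and 0.39, with R-HNK replicate 2 at 18.0 CPM above both other R-HNK libraries. Otof, an upper layer gene, had 0.68 and -0.39. Nr4a3 had 0.42 and -0.06, Reln 0.20 and -0.08, Trib1 0.18 and -0.17, and Gadd45a 0.15 and -0.20. Mdga1 had 0.11 and -0.14, Dlg4 0.07 and -0.06, and Spry4 0.06 and -0.07. The summed CPM of neuroblast genes had -0.13 and 0.28, with 273 CPM in R-HNK replicate 2 against 258 and 241 CPM, and 259 CPM in sham replicate 1 against 298 and 332 CPM.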

How the results depend on the processing

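Counts by the threshold depended on the size asked for and little on scaling. The 124 genes of the 9 libraries became 261 with 0.1 added before the logarithm, 469 at 1.5-fold and 23 at 4-fold. The 422 of sham became 1653, 1909 and 59, and the 243 of R-HNK 1310, 1429 and 40, in the same order. With TMM, RLE, no filter, or Adora2a in place of Drd2 all 3 counts stayed within 1.5 times. Leaving out 1 library gave 103 to 158 over 9 libraries, 500 to 636 within sham (636 without sham replicate 2) and 297 to 400 within R-HNK (400 without R-HNK replicate 1). The within-group ranges, and a count over sham and R-HNK libraries alone (150), were added after seeing the data.

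The 233 genes of injured saline against sham mice became 370 with no filter, 1185 in DESeq2, 106 with the threshold as a term, 86 without the 4 libraries and 60 to 1170 when 1 library was left out. The 26 genes of R-HNK against injured saline mice became 140 in DESeq2 and 7 to 56 when 1 library was left out. The 1 gene of R-HNK against sham mice became 10 in DESeq2, 25 without the 4 libraries (1 library a group, with the spread taken from injured saline alone) and 1 to 11 when 1 library was left out. The cause of these changes was not tested. Replicate numbers were also used as a block. Same-numbered libraries did not deviate together (correlations of -0.104 to 0.0917), so the numbers do not pair the samples, and the replicate block gave 162, 16 and 2 genes. Genes under about 1 CPM rest on few reads, and their log2 differences move with the added constant.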
